A study of Mus musculus with 3 samples.

Results

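The synaptonemal complex and axis genes described here are Sycp1, Sycp2, Sycp3, Syce1, Syce2, Syce3, Tex12, Hormad1 and Hormad2, 9 of the 55450 annotated genes searched. A small RNA was assigned to a gene when its whole sequence matched a transcript of that gene exactly, on either strand, and the transcript lay on the listed chromosome. Sense and antisense matches were kept apart. The study sequenced small RNAs bound to Tdrd1, a Tudor-domain protein of germ cells, or to Mili, a Piwi protein, from testes of C57BL/6 mice. There was 1 library in each of 3 groups: Tdrd1 immunoprecipitates from adults, Mili immunoprecipitates from wild-type adults, and Mili immunoprecipitates from Tdrd1 knockout animals at 15 dpp (days after birth). The genotype of the animals behind the Tdrd1 library, the knockout allele and the number of animals per library were not given in the sources used here. This deposited list pools the 3 libraries as distinct sequences with no read number, so every value below counts distinct sequences and no group can be set against another. Genotype and age differ together between the Mili groups and cannot be told apart.

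The synaptonemal complex is the protein zipper that holds homologous chromosomes together in meiotic prophase. Each chromosome is folded along an axis, also called the lateral element, transverse filaments bridge the axes, and a central element joins the filaments in the middle. HORMA-domain proteins sit on axes that are not yet synapsed. piRNAs, the small RNAs of Piwi proteins, are cut from long single-stranded precursors and usually begin with U. Some precursors are mRNAs, and many testis mRNAs are known to give piRNAs from their 3′ untranslated region (UTR).

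All 9 genes were sources of sense small RNAs. They gave 1142 distinct sense and 9 antisense sequences, from 28 for Tex12 to 267 for Sycp1. Where several sequences shared a 5′ end, they differed in their 3′ end. In Sycp3, the 5′ end with most variants lay at position 58 of the longest coding transcript, in coding sequence of exon 2 of 8, and carried 8 distinct sequences. They are shown to make this nested series visible, 5′ to 3′, with T for U and the first base in capitals. The longest of them occupies chr10:87925214-87925243 (mm9, plus strand).
Sycp3, 23 nt: Taaagatggtgcctggtggaaga
Sycp3, 24 nt: Taaagatggtgcctggtggaagaa
Sycp3, 25 nt: Taaagatggtgcctggtggaagaaa
Sycp3, 26 nt: Taaagatggtgcctggtggaagaaag
Sycp3, 27 nt: Taaagatggtgcctggtggaagaaagc
Sycp3, 28 nt: Taaagatggtgcctggtggaagaaagca
Sycp3, 29 nt: Taaagatggtgcctggtggaagaaagcat
Sycp3, 30 nt: Taaagatggtgcctggtggaagaaagcatt

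Every length from 23 to 30 nt was present at this end. Sycp1, the gene with most sequences, had 4 coding 5′ ends with 5 variants each. The first of them starts at position 488 of its longest coding transcript, in exon 6 of 33, and its longest form lies at chr3:102736626-102736654 (mm9, minus strand).
Sycp1, 25 nt: Tagaatctgaactgaagcagaaaga
Sycp1, 26 nt: Tagaatctgaactgaagcagaaagaa
Sycp1, 27 nt: Tagaatctgaactgaagcagaaagaaa
Sycp1, 28 nt: Tagaatctgaactgaagcagaaagaaaa
Sycp1, 29 nt: Tagaatctgaactgaagcagaaagaaaat

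For the other 7 genes a single sequence from the coding 5′ end with most variants is shown, to compare first bases. These ends carried from 3 variants (Tex12) to 6 (Syce3).
Sycp2, chr2:178128889-178128915, minus strand, exon 10 of 44: Cagaaaaacggagacaagaactggcat
Syce1, chr7:147963596-147963623, minus strand, exon 13 of 13: Taaacctgtagaagtccacgaggagaca
Syce2, chr8:87409846-87409873, plus strand, exon 4 of 5: Acagaaaagttggaggagaggatgtacc
Syce3, chr15:89220748-89220775, minus strand, exon 3 of 3: Tgcaaagaggagatggagaagaactggc
Tex12, chr9:50365486-50365512, minus strand, exon 5 of 5: Acaaaaaagagagttcctgaagcagag
Hormad1, chr3:95382188-95382215, plus strand, exon 10 of 16: Taatggacaaagatgatgtggaagatga
Hormad2, chr11:4309061-4309087, minus strand, exon 9 of 11: Tgtatatactgatgcagaatcttggac

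The Syce2 and Tex12 examples begin with A and the Sycp2 example with C, whereas the others begin with U. The Sycp2 example is the first of 5 ends tied at 4 variants.

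Density, taken as the number of distinct sense sequences over each kb of merged exon, allows genes of different length to be set side by side. It ranged from 25.1 to 165 per kb over the 9 genes, with a median of 65.5, against a median of 2.89 over the 21951 protein-coding genes. Each of the 9 genes had at least 1 sense sequence, as had 71% of protein-coding genes. All 9 exceeded 20 per kb, which 16.6% of protein-coding genes reached, 5 exceeded 50 per kb (4.51% of protein-coding genes), and 2 exceeded 100 per kb (1.02%). There is no replicate, so intervals for counts are exact Poisson 95% intervals and those for shares exact Clopper-Pearson 95% intervals. Both cover counting error only, and sequences that overlap on 1 transcript are not independent. In whole testis, fewer cells of a type and less RNA per cell cannot be told apart.

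Sycp1, which forms the transverse filaments, gave 267 sense sequences (75.1 per kb, 66.3 to 84.7) from 174 5′ ends. They lay between 102622469 and 102739979 of chromosome 3, and 27 of the 33 exons of its longest coding transcript held the start of at least 1. The exons that stood out were short: exon 15, of 68 nt, held 23 starts and exon 17, of 105 nt, held 26. Coverage was thus spread over the mRNA with local peaks, and 47.6% of its bases were covered by a sequence.

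The lateral element genes were far apart. Sycp3, a core component of the axis, had 208 sense sequences, at 165 per kb (143 to 189) the highest density of the 9 genes and rank 58 among protein-coding genes. Its sequences lay between 87925212 and 87935961 of chromosome 10 and covered 63.9% of its longest coding transcript, the largest covered share of the 9. Exons 2, 3 and 6, with 51, 32 and 52 starts, held most of them, and exon 8, the longest at 561 nt, held 42. Sycp2, its partner in the axis, had 150 sequences on a much longer mRNA (25.1 per kb, 21.3 to 29.5), between 178080195 and 178138502 of chromosome 2. Exon 10 of Sycp2, of 143 nt, held 33 starts, 22% of the gene's sequences. The Sycp2 density was the lowest of the 9, and its interval did not overlap that of Sycp3.

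Central element genes covered nearly the same range. Syce3, the smallest of these mRNAs, had 83 sequences (150 per kb, 120 to 186, rank 75), between 89220613 and 89227856 of chromosome 15. Syce1 had 124 (84.9 per kb, 70.6 to 101.3), on chromosome 7 from 147963186 to 147973733, and 12 of its 13 exons held a start. Syce2 had 129 (65.5 per kb, 54.7 to 77.9), on chromosome 8 from 87396125 to 87411822. Tex12, whose protein assembles with that of Syce2 into filaments, had only 28 (27.6 per kb, 18.3 to 39.8), on chromosome 9 from 50365137 to 50367382. The intervals of Syce2 and Tex12 did not overlap.

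The HORMA-domain genes stood in the lower part. Hormad1, which is needed for synapsis and for break formation on the axis, had 72 sequences (41.6 per kb, 32.6 to 52.4), on chromosome 3 from 95363603 to 95391455. Of these, 28 started in exon 10 and 17 in exon 3. Hormad2, which takes part in the checkpoint on unsynapsed axes, had 81 (29.6 per kb, 23.5 to 36.8), on chromosome 11 from 4245842 to 4340938. In the order of densities, neighbours differed beyond their counting intervals only between Syce3 and Syce1 and between Syce2 and Hormad1. Sycp3 and Syce3 had overlapping intervals, as did Syce1, Sycp1 and Syce2, and Hormad1, Hormad2, Tex12 and Sycp2 each with the next.

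**Figure D1:**
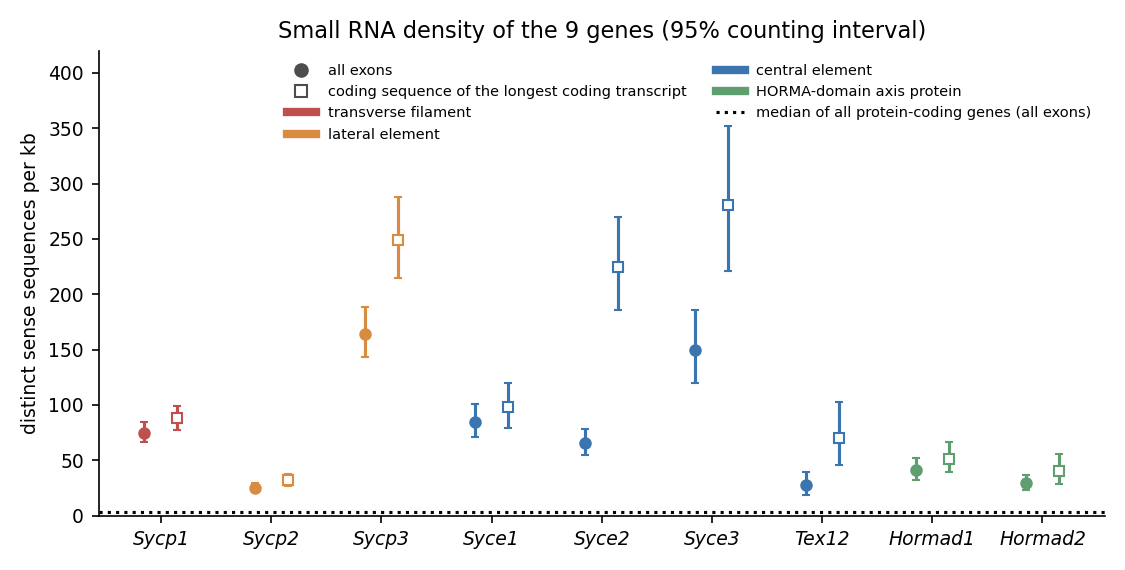
Distinct sense sequences per kb (vertical axis) for the 9 genes, over all exons (filled circles) and over the coding sequence of the longest coding transcript (open squares). Bars are exact Poisson 95% intervals, colours give the role in the complex, and the dotted line is the median of all protein-coding genes over all exons (2.89 per kb). Over all exons Sycp3 and Syce3 stand highest, and over coding sequence Syce2 joins them.

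The order changed when only coding sequence was counted. On the coding part of the longest coding transcript, Syce3 had 281 sequences per kb (221 to 352), Sycp3 249 (214 to 287) and Syce2 225 (186 to 270), 3 values with overlapping intervals. Syce1 followed with 98, Sycp1 with 87.9, Tex12 with 69.9, Hormad1 with 51.6, Hormad2 with 40.2 and Sycp2 with 32.2. Syce2 thus moved from a middle place to the leading group. Its longest coding transcript has a 3′ UTR of 1042 nt, which held 10 sequences, beside a coding sequence of 516 nt with 116.

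Sequences of these genes came mainly from coding sequence. Of the 1142, those placed on protein-coding transcripts lay to 88.5% (86.5 to 90.3%) in coding sequence, which makes up 71.3% of the length of the same transcripts. Another 10.3% (8.53 to 12.1%) lay in the 3′ UTR, against 21.1% of length, and 1.23% in the 5′ UTR, against 7.60%. Over all protein-coding genes the 3′ UTR held 51.3%, against 35.0% of length, and coding sequence 44.6%, against 57.3%. In 7 of the 9 genes the 3′ UTR share was below its share of length. Of protein-coding genes with at least 20 placed sequences, 44.8% had the same direction.

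Single genes differed widely. Sycp1 had 1 of 267 sequences in its 3′ UTR (0.375%, against 5.62% of length), and Sycp2 5 of 150 (3.33%, against 16.4%). In Sycp3 the share was 9.42% against 30.2%, in Syce2 7.87% against 50.1%, in Tex12 7.14% against 50.1%, and in Syce3 9.64% against 23.3%. In these 6 genes the share of length lay above the counting interval of the observed share. Syce1 (20.2% against 24.8%, interval 13.5 to 28.3%) and Hormad1 (16.7% against 16.3%) did not differ from length beyond counting error. Hormad2 went the other way, with 44.7% (33.3 to 56.6%) against 23.8%. Its last exon, of 853 nt, held 35 starts.

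**Figure D2:**
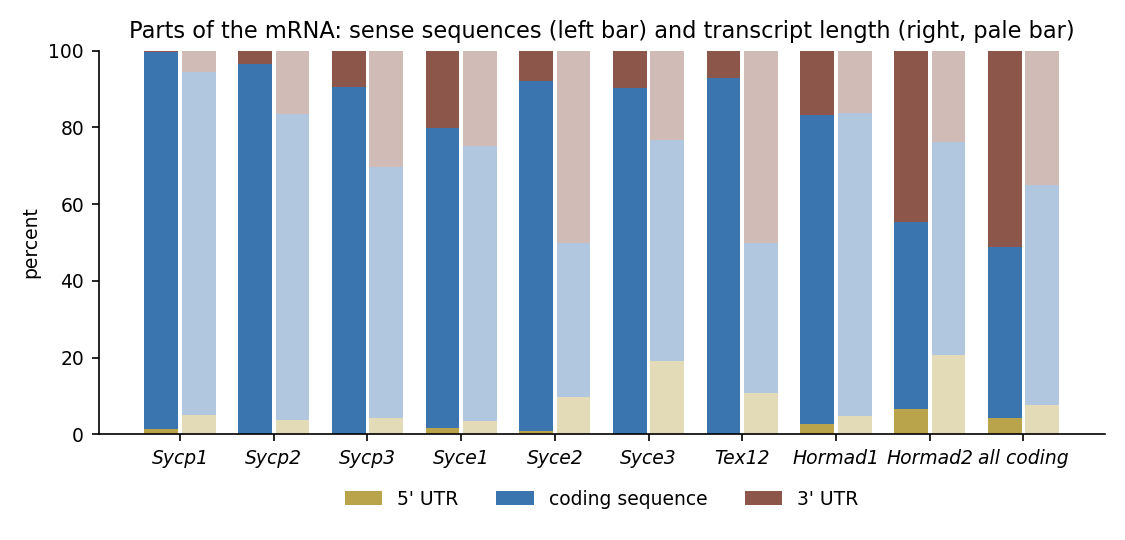
Share (percent, vertical axis) of the 5′ UTR, coding sequence and 3′ UTR in the sense sequences of each gene (left, full colour) and in the length of the same transcripts (right, pale), with all protein-coding genes as the last pair. Coding sequence takes 88.5% over the 9 genes together, whereas Hormad2 has 44.7% in its 3′ UTR.

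Coding sequence also held more than its share of length in other meiotic genes, by a smaller margin, and the difference between lists was not tested. In a list of 14 other axis, cohesin and synapsis genes coding sequence held 83.6% (81.6 to 85.5%) of sequences, against 73.0% of length. In 18 meiotic recombination genes it held 80.8% (78.5 to 83.0%) against 77.0%, and their 3′ UTR share of 13.5% (11.6 to 15.5%) did not differ from the 15.4% of length beyond counting error. The germ cell genes Ddx4, Dazl, Stra8 and Kit together had 44.4%, below the 57.6% that length gives.

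**Figure D3:**
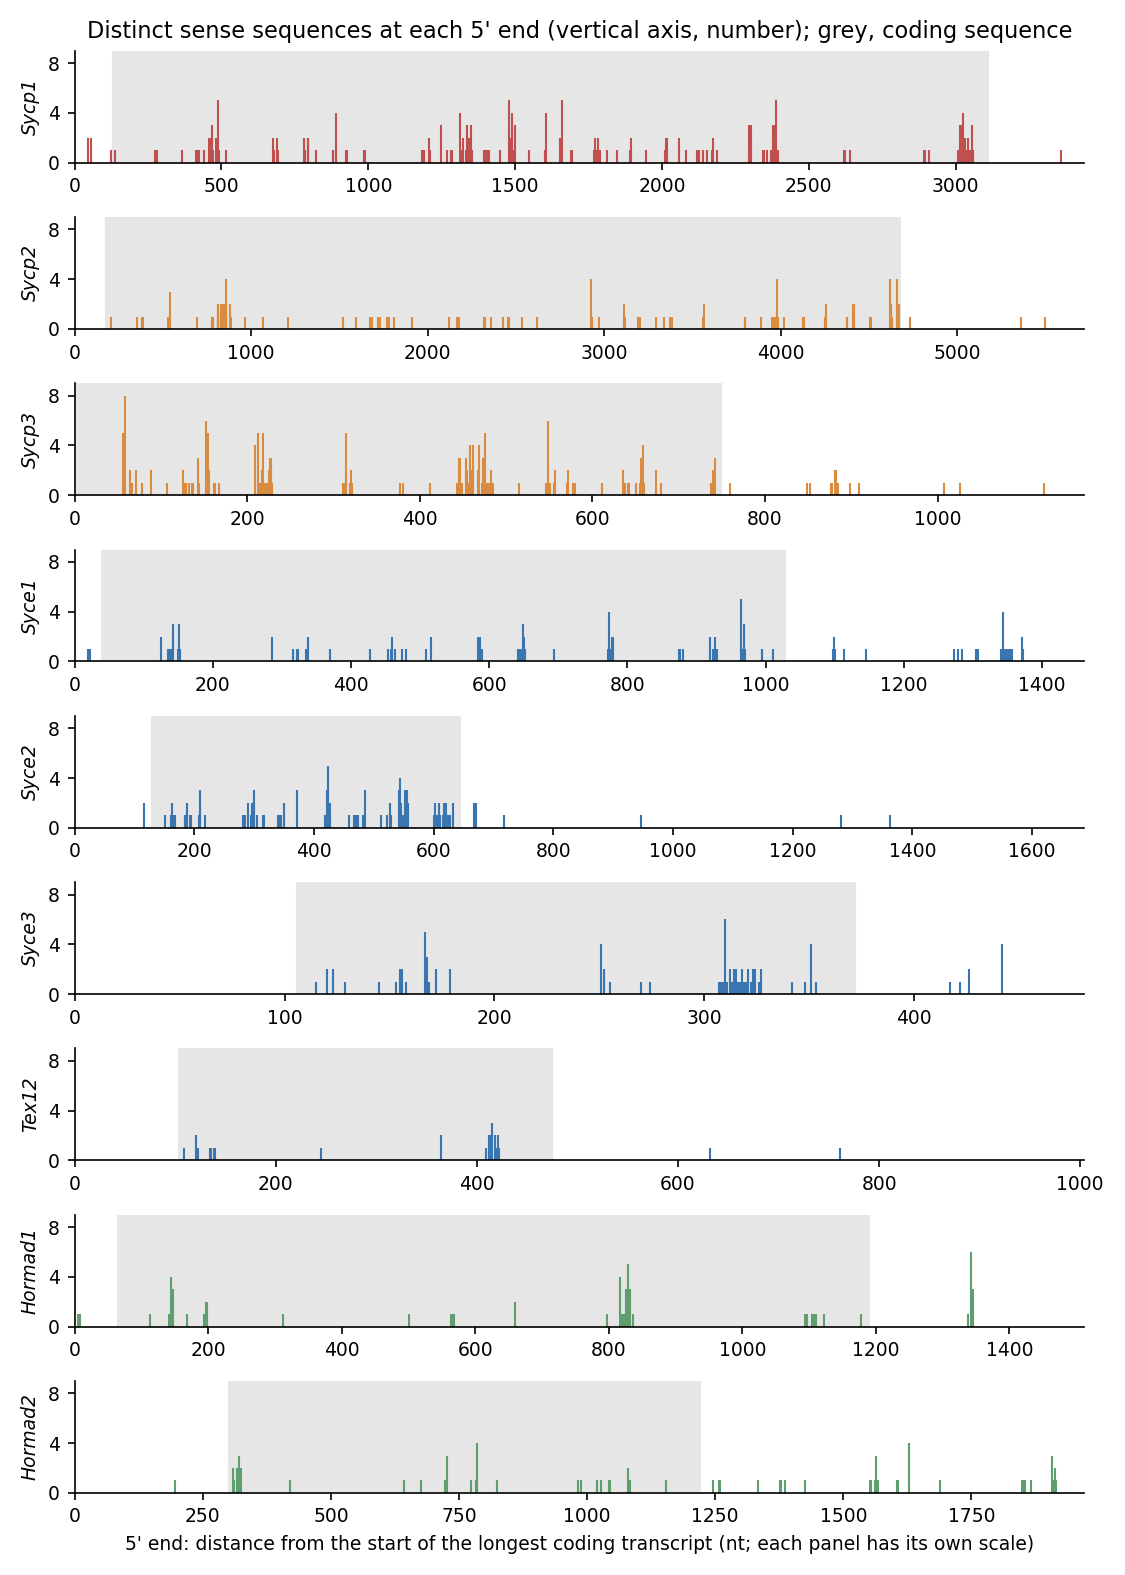
Number of distinct sense sequences (vertical axis) at each 5′ end along the longest coding transcript of each gene (horizontal axis, nt from the transcript start, with a scale for each panel). The grey area is coding sequence, and the 22 sequences that cross an exon junction are left out. The 5′ ends lie in groups, and the highest bar is the Sycp3 end with 8 sequences.

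Over the 9 genes together, U was the first base less often than over all protein-coding genes. Of 1138 sense sequences of 24 to 32 nt, 55.6% (52.7 to 58.5%) started with U, against 67.7% over all protein-coding genes. Within coding sequence the shares were 53.9% (50.7 to 57.0%) and 59.4%. The other axis, cohesin and synapsis genes had 57.3% (54.7 to 59.8%), which overlaps the 9 genes, the recombination genes 62.7% and the 4 spermatid genes 12.7%. The share differed between the groups of the complex. The Sycp genes together had 59.6% (55.7 to 63.5%), the central element genes 42.4% (37.3 to 47.7%) and the Hormad genes 70.6% (62.7 to 77.7%). The interval of the central element genes lay below the other two, which overlapped narrowly. Syce1 stood at 46.3%, Syce2 at 38.8%, Syce3 at 43.4% and Tex12 at 39.3%. These 4 of 9 genes were below 50%, as were 12.3% of protein-coding genes with at least 20 such sequences. Of the 4, only Syce2 had an interval wholly below 50% (30.3 to 47.7%). Sycp1 had 62.5%, Sycp3 58.5%, Sycp2 56.1%, Hormad1 69.4% and Hormad2 71.6%.

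Base content was low in some of the genes with few U starts but not in all, and its part in the shares was not tested. The coding sequences of Syce1, Syce2 and Syce3 held 17.0%, 16.9% and 18% U, and those of the other 6 genes from 22.3% (Sycp1) to 26.4% (Hormad1). Within coding sequence, U was the first base 2.46 times as often as its content, against 2.73 times over all protein-coding genes. The ratio was 2.61 for Syce1, 2.15 for Syce2 and 2.37 for Syce3, beside 2.21 for Sycp2, 2.43 for Sycp3, 2.48 for Hormad1, 2.77 for Sycp1 and 2.79 for Hormad2. Tex12 had the lowest ratio, 1.51, with 10 of 26 coding sequences starting with U, while its coding sequence holds 25.5% U. In Tex12 A was the first base of 50% of sequences, and in Syce2 of 34.1%.

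**Figure D4:**
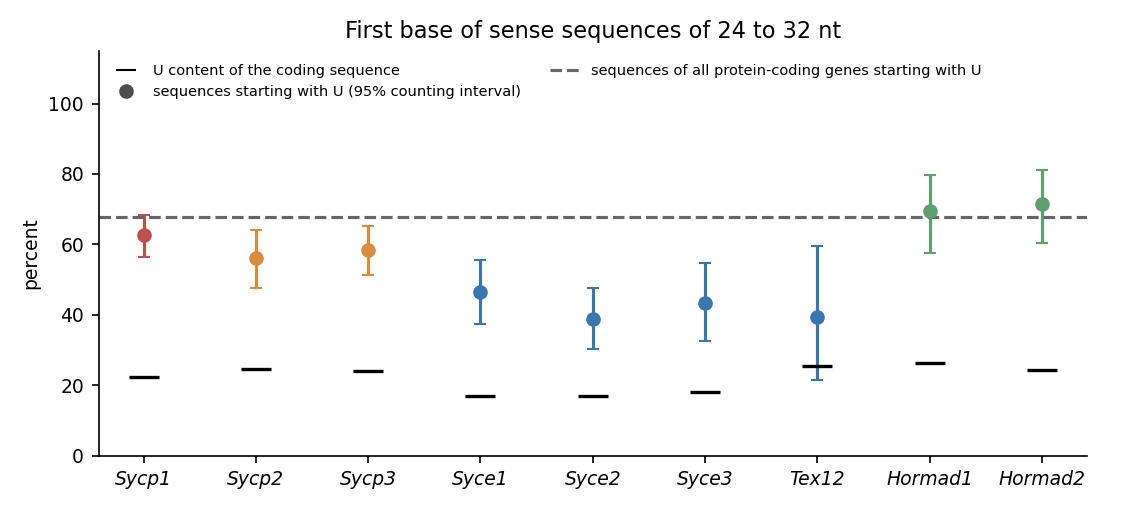
Percent (vertical axis) of sense sequences of 24 to 32 nt that start with U in each gene (points, exact 95% intervals), the U content of its coding sequence (black marks), and the share over all protein-coding genes (dashed line, 67.7%). The points of the 4 central element genes in blue lie below 50%. Those of the Hormad genes in green lie slightly above the dashed line, with intervals that include it.

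Within the 9 genes, the preference for U was strongest at 5′ ends with several 3′ ends. The 9 genes had 743 5′ ends. Of these, 509 carried a single sequence, and 40.3% (36 to 44.7%) of them began with U. Among 140 ends with 2 sequences the share was 54.3% (45.7 to 62.7%), and among 94 ends with 3 or more it was 76.6% (66.7 to 84.7%). The first and last of these intervals did not overlap. These classes were not set beside those of all protein-coding genes, so the pattern cannot be called particular to the 9 genes. With each 5′ end counted once, the share was 47.6%, against 61.7% over all protein-coding genes.

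Lengths had a single peak in each gene, at 27 or 28 nt, within a range of 23 to 32 nt. Per the labels, RNA of about 28 to 30 nt was cut from a gel, so the lengths were selected, although the peak of 5 genes lay at 27 nt. Sequences of 29 to 32 nt made up 29.4% (26.8 to 32.2%), above the 23.3% over all protein-coding genes. Hormad2 had the highest share, 34.6%, and Tex12 the lowest, 17.9% (6.06 to 36.9%). All 9 intervals overlapped. With each 5′ end counted once at its most common length, the share was 21.7%, against 17.3% over all protein-coding genes.

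**Figure D5:**
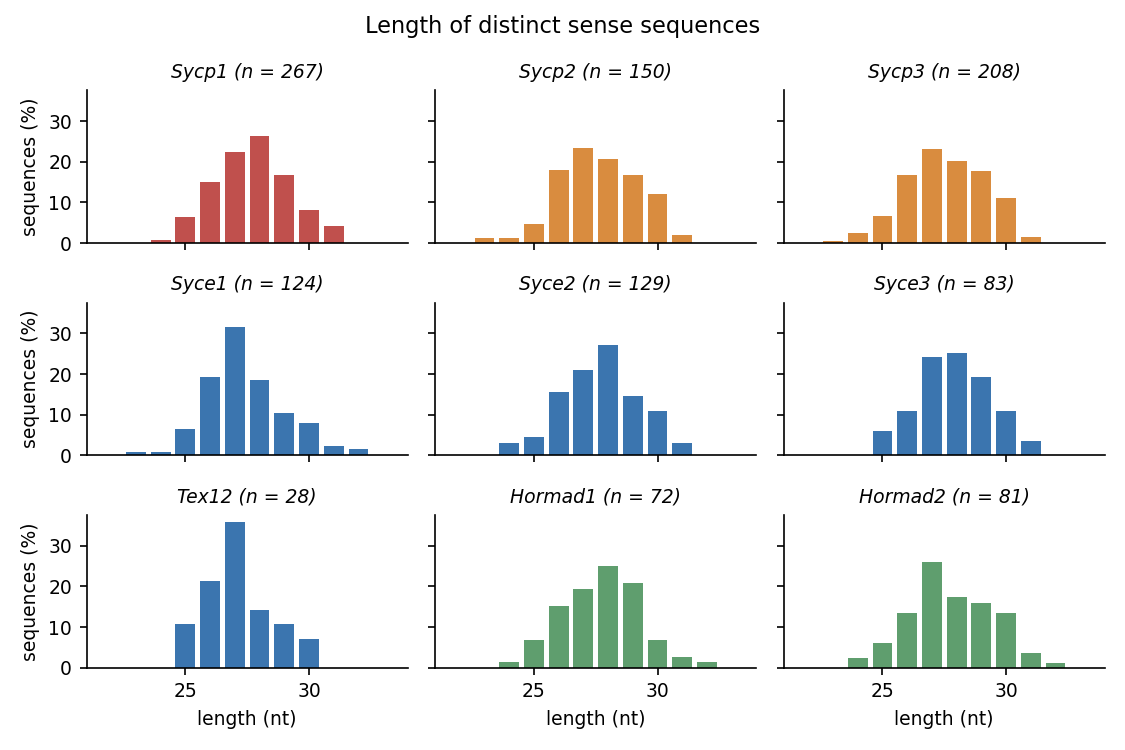
Length in nt (horizontal axis) of the distinct sense sequences of each gene, as percent of that gene's sequences (vertical axis), with the number of sequences above each panel. Every panel peaks at 27 or 28 nt.

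Other marks of processing were set beside the values of all protein-coding genes. The base that follows the 3′ end in the transcript, often U in piRNAs made in phase, was U in 26% (23.5 to 28.7%) of 1130 sequences, as in 26% over all protein-coding genes. Starts that directly followed a 3′ end numbered 55, against 37.2 ± 9.24 (SD over distances of 2 to 30 nt), a ratio of 1.48. The numbers fell with distance, from 63 at 2 nt, the highest, and 47 at 3 nt to 22 at 30 nt. The ratio and the SD thus hold this slope and do not measure an excess over nearby distances. Over all protein-coding genes the same ratio was 1.06, with 42512 at 2 nt and 38160 at 30 nt. The difference was not tested. A at position 10, known from secondary piRNAs, was present in 36.3% against 32.1%. The transcripts' A content, weighted in the same way, was 34.6% and 26%. The highest A shares at position 10 were in Syce1 (43.9%, with 29.9% A in its longest coding transcript) and Sycp1 (42.3%, with 41.5% A).

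Antisense sequences were few, at 9 in all. Sycp3 had 5, Sycp1 2, and Syce2 and Hormad2 1 each, so that 4 of 9 genes had any, as had 30% of protein-coding genes. The other 5 genes had 0, where a count of 0 was taken to allow up to 3, a fixed limit and not the Poisson interval above. All 5 on Sycp3 were also sense to Chpt1, a gene of phospholipid synthesis annotated on the opposite strand, and they lay between 87935614 and 87935715 of chromosome 10. In turn, 59 of the 208 Sycp3 sense sequences matched the antisense strand of Chpt1, whose own sense sequences numbered 69. On Sycp3, 2 pairs of sense and antisense sequences overlapped by 10 nt at their 5′ ends, the offset of the amplification cycle. The other 8 genes had 0, but 5 of them had no antisense sequence, so no pair was possible there. Pairs at other overlaps or in other genes are not given here, so the 2 pairs cannot be called an excess or particular to Sycp3. The Sycp1 antisense sequences, at 102739498 to 102739523 and 102739951 to 102739977 of chromosome 3, lay near the 5′ end of the gene, and the Hormad2 one lay at 4340994 to 4341024, beyond its first sense sequence.

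Other genes of meiotic chromosome structure overlapped the 9 genes in density, with lower medians. The 14 other axis, cohesin and synapsis genes all had sense sequences, as had 71% of protein-coding genes. Their median was 20.5 per kb, and 7 of the 14 exceeded 20 per kb, which 16.6% of protein-coding genes reached. Highest were Hspa2, a chaperone of spermatocytes (70.3), and Smc1b, a cohesin subunit of meiosis (57.8). Both stood above Hormad1, Hormad2, Tex12 and Sycp2, and Hspa2 also above Syce2 (65.5). Lowest were Terb1 (8.8) and Terb2 (6.62), which attach telomeres to the nuclear envelope. The 18 recombination genes had a median of 14.3 per kb, and 6 exceeded 20 per kb. They ranged from Psmc3ip, a partner of the strand-exchange proteins (55.6), and Rec114, a factor of break formation (43.9), down to Mei4 (2.67) and Msh5 (2.53). The range of the 9 genes, 25.1 to 165, overlapped both lists, and the difference between lists was not tested.

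Protein-coding genes near Sycp3 in density, among those with 50 or more sense sequences, included Rpl4 (165 per kb) just above, a gene of a class with many processed copies in the genome, and Fem1b (164) and Zfp518b (164) just below. The likeness is in this single value of the pooled list. Their shares starting with U were 40.3%, 75.7% and 74.6%, against 58.5% for Sycp3, so that genes of nearly equal density differed in first base.

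Markers of germ cells were present, and those of somatic testis cells lay below the median of all protein-coding genes except Star, Insl3 and, narrowly, Amh. All 4 germ cell genes had sense sequences, among them Dazl (81.4 per kb), Ddx4 (40.1) and, lowest, Kit (15.8). All 4 spermatid genes had them as well, from Tnp1 (82.4) down to Prm1 (12.3) and Acr (3.83). At least 1 sense sequence was found in 71% of protein-coding genes. Of the 6 Sertoli cell genes 5 had sense sequences, and the highest, Amh, stood at 2.99 per kb, while Rhox5 had 0. Of the 3 genes of peritubular and vascular cells 2 had sequences, at most 0.455 per kb. Of 5 Leydig cell genes 3 had sense sequences, with Star at 19 and Insl3 at 11.2 per kb, and Cyp17a1 and Hsd3b6 had 0. Star had 51 antisense beside its 78 sense sequences, and the Insl3 value rests on 7 sense sequences. By sense density alone, Star stood above Kit, Prm1 and Acr, and Insl3 above Acr. A part of somatic cells in the values of the 9 genes was not tested.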

How the data were processed

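The authors deposited a single list for the 3 libraries, in which each of 2219118 distinct sequences stands with a chromosome, a start and an end on NCBI mouse build 37, per the file headers (mm9 per the submitters' processing notes). It is text with no counts, strand or library, so depth per library is unknown. The aligner, its mismatches and the handling of repeated positions were not given in the sources used here. Each sequence was searched by an 18-nt seed and then over its whole length, on both strands, in GENCODE vM21 transcripts, and 58.8% matched on the listed chromosome. The search was tested on simulated data. GENCODE vM21 describes GRCm38, so genes were assigned by sequence, and coordinates are those of the list. Placement in UTR or coding sequence used the midpoint, split equally over matched protein-coding transcripts. Python 3.11.15, numpy 2.4.6, pandas 2.3.3 and scipy 1.17.1 were used. The 9 genes, the gene lists and the thresholds were chosen with earlier results of these data known. Genes outside the 9 were named by rule: the nearest 2 on each side of the densest gene in density, and the 2 highest and 2 lowest of each list of meiotic genes. A gene that this rule selects is not reported here. Marker genes were named as examples. Within each group there is 1 library and no test across groups was made.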

Additional observations from a re-analysis of the deposited data

Results flagged for a closer look

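Inside the ranges spanned by the 9 genes, 90 listed sequences matched no annotated exon. No rate over other parts of the genome was computed to set beside this number, and there is no control library. They amount to 0.277 per kb outside exons, against 56.4 sense sequences per kb of exon over the 9 genes. Sycp1 held 34 of them and Hormad2 28, with at most 10 within 1 kb (Hormad2), while Tex12 held 0. U was the first base of 55.6% (44.7 to 66.0%), and the mean length was 27.7 nt. Only 10 of the 90 overlapped the position of a sense sequence of the gene, and the strand of the 90 is not known.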

How the results depend on the processing

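Of 16 alternative values over the 9 genes together 11 stayed within 1.5 times a count or within the counting interval of a share, and 5 moved. With each 5′ end counted once, the number of sense sequences was 743, the median density 42.7 per kb, the share starting with U 47.6% and, at the most common length, the share of 29 to 32 nt 21.7%. Without sequences that match another gene, antisense sequences numbered 4, because the 5 of Sycp3 also match Chpt1. Among 144 values of single genes 21 moved, mostly with each 5′ end counted once, and the Sycp3 share in the 3′ UTR was 5.07% when placed by 5′ end. Many of these values have no direction to change. Counting only places where a 27-nt sequence fits inside an exon, chosen after seeing the data, gave a median of 70.2 per kb. No paired analysis was possible because the list names no library. Read numbers were not used, so rare and abundant RNAs weigh the same.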

Other observations

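Exon junctions were nearly absent from the list in these genes. Of 1130 sense sequences matched to the longest coding transcripts, 22 crossed a junction, 14 of them in Sycp1, 7 in Syce1 and 1 in Hormad1, and the shorter side was at most 3 nt long. Every listed interval has the length of its sequence, so a sequence that crosses a junction can be listed only where the genome holds the same bases without a gap. Places where a 27-nt sequence fits inside an exon made up from 75.1% of the exon length in Sycp1 to 93.4% in Syce2. A density per kb of exon therefore includes more unusable length in Sycp1 than in Syce2. The other 1108 sequences lay at 1 place per exon, and in all 9 genes the exons followed in the annotated order.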
